A study of Mus musculus with 3 samples.

Results

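The secretory granule and prohormone processing genes examined here were Scg2, Scg3, Chga, Chgb, Pcsk1, Pcsk2, Cpe, Ptprn, Slc30a8 and Iapp, and every region was taken whose nearest gene, in the authors' annotation, carried 1 of these names. Of the 543367 regions in the deposited comparison table, 121 carried 9 of the 10 names, and Pcsk2 carried none. The peak lists held 83 such peaks among 339856 under Ad-GFP and 50 among 237322 under Ad-Ets-1. The assay was ChIP-seq for the transcription factor Ets-1 in Min6 cells, a mouse insulinoma line that makes insulin, with paired reads. All cells were grown in 25 mM glucose; those of the control group received an adenovirus with GFP (Ad-GFP) for 24 h, and those of the other group an adenovirus that overexpresses Ets-1 (Ad-Ets-1) for 24 h. An input library of unprecipitated chromatin, whose virus the labels do not give, was the last. With 1 library per group and 1 cell line, differences below lack replicates and are given without p-values.

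A β cell folds proinsulin in the endoplasmic reticulum and packs it into dense-core granules. There the endoproteases encoded by Pcsk1 and Pcsk2 cut the prohormone at pairs of basic residues, and carboxypeptidase E (Cpe) trims the residues left at the new ends. Granins (Chga, Chgb, Scg2 and Scg3) are acidic proteins that help form the granule core, Slc30a8 carries the zinc with which insulin crystallises, and Ptprn is a transmembrane protein of the granule. Iapp encodes amylin, a peptide processed by the same enzymes and released together with insulin. Ets-1 belongs to the ETS family, whose members recognise DNA words built around GGAA. Binding was measured here, not RNA or protein, so the libraries say nothing of how strongly these genes are expressed in Min6 cells.

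Counts and RPM imply totals of 1938473 reads under Ad-Ets-1, 1775757 under Ad-GFP and 3937472 in the input, to which reads are scaled in every ratio below. In both precipitated libraries most nonzero counts were even (72.0% and 74.5%, against 19.0% in the input), so a count of 2 was treated as 1 fragment. Intervals are 95% exact conditional binomial intervals on fragments; they cover counting error only, and PCR copies cannot be told from separate molecules. The table lists only regions called in at least 1 precipitated library, so a gene without a region is one without a call, not one without reads. Coordinates are mm10, 1-based.

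Most regions of these genes rested on a single fragment, and the most heavily read lay beside Iapp. Neither precipitated library held more than 2 reads in 89 of the 121 regions (73.6%, against 80.8% of all compared regions), and 107 had no input read. The commonest pattern, in 38 regions, was 2 reads under Ad-GFP and 0 under Ad-Ets-1, and 22 regions showed the reverse. Calls came under Ad-GFP alone in 71 regions, under Ad-Ets-1 alone in 38 and from both in 12, where 56.4%, 37.5% and 6.13% of all compared regions fell into these classes. By class, 74 regions were distal intergenic (61.2%, against 33.0% of the 211371 regions with a gene name and 52.6% of all regions), 31 intronic, 7 exonic, 6 at promoters, 2 just downstream of a gene and 1 in a 3′ UTR. Only 38 overlapped the gene they were named for.

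**Figure D1:**
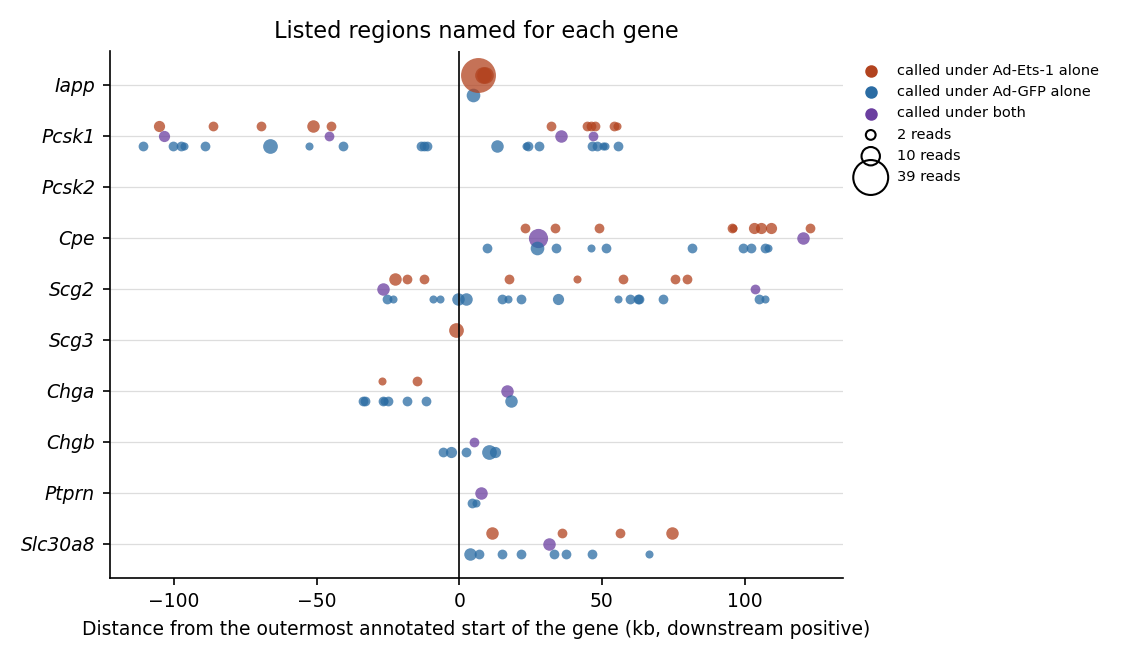
Each point is 1 of the 121 regions, placed by its distance in kb from the outermost annotated start of its gene (downstream positive); its area grows with the larger of its Ad-Ets-1 and Ad-GFP read counts, and its colour gives the library in which it was called. Points lie up to 122.8 kb away, few sit near the start itself, the largest, with 39 reads, is downstream of Iapp, and Pcsk2 has none.

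At least 5 reads in either precipitated library were held by 9 regions (7.44%, against 4.13% of all compared regions), which are compared one by one below. All 4 Iapp regions were among them, and without Iapp the share was 4.27%. A region was called higher or lower under Ad-Ets-1 where its ratio was at least 2 or at most 0.5, with a floor of 3 reads in place of smaller counts. By this rule 4 of the 9 were higher, which compares with 12.3% of the 22425 regions in the table with that many reads, and 2 were lower, against 36.4%. Of the 4 higher regions 3 lie side by side near Iapp and 1 in Cpe. With totals taken from the listed regions, a choice made once the data had been seen, 5 were higher and 0 lower. The shares over all regions were not computed with those totals, so 12.3% and 36.4% are no background for these counts. The interval left out 1 in 2 of the 9, the leading region of Iapp and that of Cpe. Both reached 5 reads only under Ad-Ets-1, and the intervals do not allow for that choice. The share of all regions whose interval leaves out 1 was not computed.

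**Figure D2:**
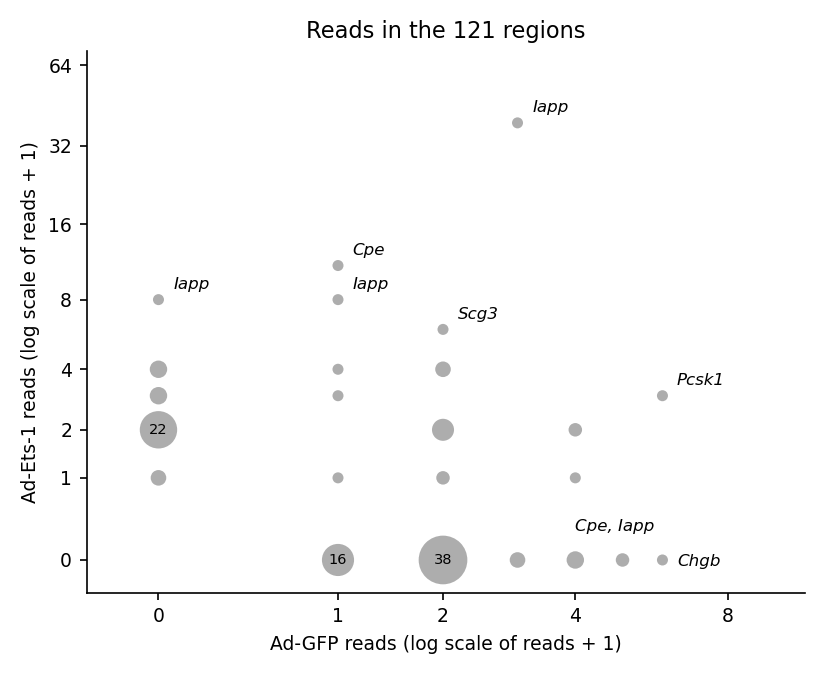
Each circle is a combination of Ad-GFP reads (horizontal) and Ad-Ets-1 reads (vertical), both on a log scale of reads plus 1; its area grows with the number of regions at that combination, printed where it is 16 or more, and genes with 5 or more reads are named. Most of the 121 regions crowd at 2 or fewer reads, with Iapp and Cpe alone above 6 Ad-Ets-1 reads.

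Iapp, the amylin gene, carried the heaviest Ad-Ets-1 signal of the 10 genes. The gene lies on chromosome 6, 142298423 to 142303961, plus strand. Its leading region, chr6:142305069-142306402, held 39 reads under Ad-Ets-1, 3 under Ad-GFP and 8 in the input. The ratio between the viruses was 11.9 (2.89 to 105). Reads under Ad-Ets-1 thus stood far above both other libraries, while Ad-GFP reads, at 0.832 times the scaled input, did not stand above it. The second region, chr6:142306653-142307139, held 8, 1 and 0 reads in the same order, a ratio of 7.33 (0.725 to 361). The region farthest from Iapp, chr6:142307339-142307822, held 8, 0 and 1 reads, at least 2.44-fold higher under Ad-Ets-1 against a floor of 3 reads in the control library; its interval on fragments starts at 0.605. All 3 regions were called under Ad-Ets-1 alone and reached 5 reads only in that library, so their shared direction follows from how they were listed. The intervals do not allow for that choice, and those of the last 2 hold 1.

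The 3 regions span 2754 bp, begin 1108 bp past the end of Iapp and lie in intron 1 of Slco1a5, an organic anion transporter gene on the opposite strand whose own start is 15159 bp farther on. They carry the name Iapp because its start is the nearest, with the near edges of the regions 6646, 8230 and 8916 bp from it, and no measurement here links them to either gene. Taken as 1 stretch, a choice made after the values were seen, they held 55, 4 and 9 reads. Scaled to the totals, that is a ratio of 12.6 between the viruses, with Ad-Ets-1 at 12.4 times and Ad-GFP at 0.985 times the input. As the regions were pooled for their Ad-Ets-1 reads, these ratios are a description and no interval is given. Across the genome 2 stretches held 3 or more such higher regions at gaps of at most 3 kb, and that near Iapp held the more Ad-Ets-1 reads; 1 stretch held as many lower regions. Of all regions, 128 (0.0236%) had 39 or more Ad-Ets-1 reads, and 2 of these, the Iapp region included, had a ratio as high. The authors' deposited list gives the leading peak a fold enrichment of 6.25 over local background and a −log10 q of 4.19, the highest of any member peak in either list. The same list gives the other 2 peaks folds of 2.58 and 2.60 at a −log10 q of 0.546. The leading region also drew the input, where 8 or more reads occurred in 0.0346% of regions. Neither this share nor that of 0.0236% allows for width: the region spans 1334 bp, against a median of 249 bp over all compared regions.

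The remaining region named for Iapp leaned the other way: chr6:142303146-142303383, in exon 3 of 3, held 5 Ad-GFP reads, 0 Ad-Ets-1 reads and 1 input read. That is at least 1.82-fold lower under Ad-Ets-1 against the floor, with a fragment interval of 0 to 2.22, so the difference was not detectable at this depth. Over all 4 regions Iapp held 55 and 9 reads, a ratio of 5.60 (2.27 to 16.5). All 55 lie in the 3 regions called under Ad-Ets-1 alone, and this interval does not allow for that choice either. Without the leading region the ratio was 2.44 (0.654 to 11.1) and its interval spans 1.

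**Figure D3:**
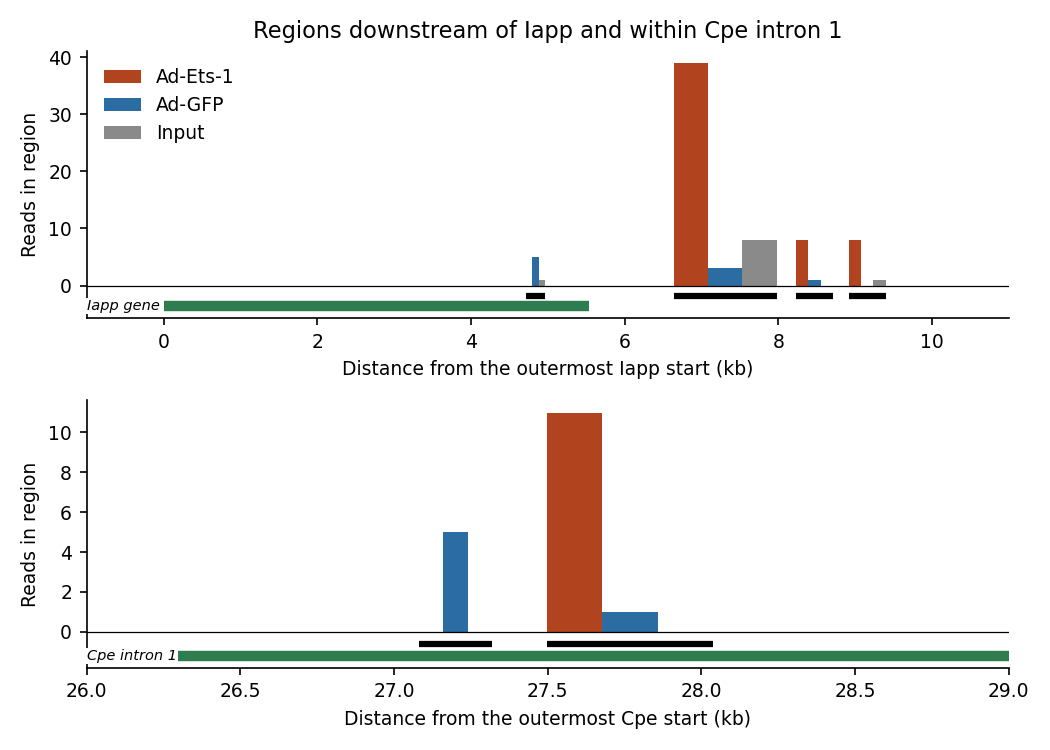
Reads in each listed region under Ad-Ets-1, Ad-GFP and in the input, against the distance in kb from the outermost start of Iapp (top) and of Cpe (bottom). Black lines mark the regions, each divided into equal parts for the 3 bars, and green lines the gene; at Iapp the red bars of 39, 8 and 8 reads stand past the gene end, and in Cpe intron 1 a region with 11 Ad-Ets-1 reads lies beside one with 5 Ad-GFP reads.

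The windows of 200 bases at the deposited summits of the 3 Iapp regions and of the leading Cpe region are printed because these 4 are the higher regions of the set. Letters are those of the GRCm38 reference, 5′ to 3′. Capitals mark 6-letter ETS words on either strand, so that a word of the minus strand shows as its complement. The first such word searched was CCGGAA. Another differs from it in the opening letter and reads ACGGAA. The last of the words searched, and the only one found in these windows, reads CAGGAA.
Iapp leading region, chr6:142305547-142305746, plus strand: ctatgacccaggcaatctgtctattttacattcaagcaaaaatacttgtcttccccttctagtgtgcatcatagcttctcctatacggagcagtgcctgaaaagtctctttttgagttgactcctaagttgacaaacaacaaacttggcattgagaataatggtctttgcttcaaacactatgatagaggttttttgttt
Iapp second region, chr6:142306653-142306852, plus strand: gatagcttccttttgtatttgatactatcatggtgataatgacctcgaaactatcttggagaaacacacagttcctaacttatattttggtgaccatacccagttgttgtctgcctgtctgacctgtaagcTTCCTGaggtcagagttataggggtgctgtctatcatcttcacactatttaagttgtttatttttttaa
Iapp last region, chr6:142307479-142307678, plus strand: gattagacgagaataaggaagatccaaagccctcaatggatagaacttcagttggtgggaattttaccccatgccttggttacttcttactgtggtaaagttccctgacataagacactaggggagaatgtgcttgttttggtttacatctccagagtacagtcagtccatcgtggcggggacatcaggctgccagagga
Cpe intron 1 region, chr8:64665280-64665479, plus strand: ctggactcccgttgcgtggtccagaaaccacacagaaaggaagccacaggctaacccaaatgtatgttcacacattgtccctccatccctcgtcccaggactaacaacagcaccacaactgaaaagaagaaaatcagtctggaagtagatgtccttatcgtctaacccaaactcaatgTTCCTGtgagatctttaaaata
The word stands once in the second Iapp window and once in the Cpe window, in both on the minus strand as CAGGAA. The leading Iapp window, from the region with the most reads, and the last Iapp window held none. Over its whole length the leading Iapp region did hold one, outside the printed window, as did 51.5% of all regions of 500 bases or more. With it, 6 of the 9 regions with 5 or more reads held one (66.7%, beside 42.2% of all regions with that many).

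Cpe, the carboxypeptidase that completes prohormone cleavage, had the only other region whose interval leaves out 1, and it too reached 5 reads only under Ad-Ets-1. The interval given below does not allow for that choice. The gene spans chromosome 8, 64592542 to 64693054, minus strand, and 21 regions carried its name. In its intron 1, chr8:64665016-64665557 held 11 reads under Ad-Ets-1, 1 under Ad-GFP and 0 in the input, a ratio of 10.1 (1.22 to 464). It was called in both lists, and 0.0979% of all regions, of any width, had as many Ad-Ets-1 reads. The authors' deposited list gives its Ad-Ets-1 peak a fold enrichment of 3.71 and a −log10 q of 1.54. With the Iapp peak it was 1 of 2 member peaks past a −log10 q of 1.3, both in the Ad-Ets-1 list. The share of all listed peaks past that threshold was not computed. A neighbouring intron 1 region, chr8:64665735-64665973, held 0, 5 and 0 reads, with an interval of 0 to 2.22. Heavier Ad-Ets-1 and heavier Ad-GFP reads thus lay in neighbouring stretches of the intron. By reads summed over both libraries the second was a distal region, chr8:64571760-64572605, with 4, 2 and 0 reads, and none of the remaining Cpe regions held more than 4 in a library. Summed over the gene, Cpe held 37 and 24 reads, a ratio of 1.41 (0.685 to 3.00), and no input read.

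The endoprotease genes had many weakly read regions. Pcsk1 (chromosome 13, 75089826 to 75134861, plus strand) had the most, 35, of which 28 were distal intergenic, at up to 110818 bp from its outermost start, and none lay within 11140 bp of it. Its most heavily read region, chr13:75023161-75023398, at -66428 bp from the start, held 3 reads under Ad-Ets-1, 6 under Ad-GFP and 1 in the input, a ratio of 0.458 (0.0383 to 3.998). It passed the call for lower, with an interval that spans 1. The next, chr13:75125328-75126030 in exon 10 of 14, held 2 and 4 reads and was called in both lists. No other region of Pcsk1 held more than 4 reads, and the sum of 37 against 50 gave a ratio of 0.678 (0.366 to 1.24).

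Pcsk2 (chromosome 2, 143546156 to 143816285, plus strand) carried no region by name, although regions were listed there. Within the gene and 10 kb to either side, 30 regions were listed, and the annotation gave all of them to 2 antisense genes, Pcsk2os1 (14 regions) and Pcsk2os2 (16). Such entries have no gene name in the files, as was the case for 61.1% of all regions. The 30 regions held 31 reads under Ad-Ets-1, 39 under Ad-GFP and 3 in the input, none of them more than 4 in a precipitated library. Regions were listed there at 10.3 per 100 kb, against 19.9 over the chromosomes. Among the 10 genes the same measure ran from 6.65 at Chga to 23.1 at Pcsk1. None lay within 1 kb of the Pcsk2 start.

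Among the granin genes, Ad-GFP reads were the more numerous at Chga, Chgb and Scg2. Ad-GFP called 9 of 11, 6 of 6 and 19 of 27 of their regions, and 62.5% of all compared regions. The intervals of Chga and Scg2 over all their regions, given below, hold both 1 and the ratio of 0.781 over the whole table. Chga (chromosome 12, 102554969 to 102565028, plus strand) had no region within the gene. Of its 11 regions 9 lay upstream at 11718 to 33811 bp, and the 2 most heavily read lay in intron 9 of 9 of Itpk1, its neighbour. Of these, chr12:102571750-102572226 held 4 reads under Ad-Ets-1 and 1 under Ad-GFP, and chr12:102573073-102573539 held 0 and 4. The sum for Chga was 7 and 19 reads with 3 in the input, a ratio of 0.337 (0.0784 to 1.14). Without the first of these regions, which held 4 of the 7 Ad-Ets-1 reads, it was 0.153 (0.0163 to 0.716). That interval leaves out both 1 and 0.781.

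Chgb (chromosome 2, 132781278 to 132795079, plus strand) had 6 regions, all called under Ad-GFP and 1 also under Ad-Ets-1. Intron 3 of 4 held its leading region, chr2:132791640-132791878, with 0 reads under Ad-Ets-1, 6 under Ad-GFP and 0 in the input. That is at least 2.18-fold lower against the floor, and its interval of 0 to 2.22 spans 1. The next were chr2:132783778-132784015 in intron 1, with 2, 2 and 0 reads, and chr2:132786575-132787033 in intron 3, with 2, 2 and 1. The sum of 4 and 18 reads gave a ratio of 0.204 (0.0217 to 0.955), the lowest of the 10 genes, and 0.305 (0.03095 to 1.60) without the leading region. As every region here was called under Ad-GFP, the sum is drawn from places where that library had reads.

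Scg2 (chromosome 1, 79434669 to 79440120, minus strand) had 27 regions, 25 of them distal, and was the only gene of the 10 with a region within 1 kb of its outermost start. That region, chr1:79440499-79440829, 379 bp upstream, held 0 reads under Ad-Ets-1, 4 under Ad-GFP and 1 in the input. In intron 1 of 2, chr1:79437516-79437753 likewise held 0 and 4 reads. The most heavily read distal region, chr1:79466784-79467295, held 4 and 2 reads. The sum of 23 and 37 gave a ratio of 0.569 (0.257 to 1.20).

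Scg3 (chromosome 9, 75643189 to 75684056, minus strand) had a single region by name, 1207 bp upstream of its start. Called under Ad-Ets-1 alone, chr9:75685263-75685511 held 6 reads there, 2 under Ad-GFP and 0 in the input, a ratio of 2.75 (0.221 to 144). The annotation gave 13 of the 14 regions in Scg3 or within 10 kb of it to other genes. Those inside the gene, 6 regions, went to Gm37871, and those beside it to Lysmd2 (3) and Gm3671 (4). Of these, chr9:75663071-75664055 in exon 9 of 12 held 2 reads under Ad-Ets-1 and 9 under Ad-GFP, a ratio of 0.204 (0.00430 to 1.82). It was the most heavily read Ad-GFP region in any of the 10 gene bodies. The 2 upstream windows of Scg3 and Scg2 are printed as the only listed regions within 3 kb upstream of an outermost start that the files class as promoters, with capitals as above.
Scg3 upstream region, chr9:75685307-75685506, plus strand: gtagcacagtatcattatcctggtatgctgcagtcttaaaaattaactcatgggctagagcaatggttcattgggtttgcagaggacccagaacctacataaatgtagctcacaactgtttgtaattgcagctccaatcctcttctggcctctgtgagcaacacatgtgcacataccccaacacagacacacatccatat
Scg2 upstream region, chr1:79440562-79440761, plus strand: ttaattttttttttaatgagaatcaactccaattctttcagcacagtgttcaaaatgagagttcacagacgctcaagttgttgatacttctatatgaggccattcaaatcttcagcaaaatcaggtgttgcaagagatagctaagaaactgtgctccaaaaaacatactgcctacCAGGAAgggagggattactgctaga
The Scg2 window holds CAGGAA once on the plus strand, and the Scg3 window holds none of the words.

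The granule membrane genes held no region with 5 reads. Ptprn (chromosome 1, 75247027 to 75264502, minus strand) had 3 regions with 2 and 7 reads in all, a ratio of 0.262 (0.00531 to 2.64). Its leading region, chr1:75256373-75256948 in exon 8 of 23, held 2 and 4 reads and was called in both lists. Slc30a8 (chromosome 15, 52295553 to 52335798, plus strand) had 13 regions, 7 of them in its introns. Its 2 most heavily read were chr15:52327066-52327561 in intron 5 of 7, with 4 reads under Ad-Ets-1 and 2 under Ad-GFP, and chr15:52299440-52299677 in intron 1, with 1 and 4. The sum of 20 and 19 gave a ratio of 0.964 (0.372 to 2.53), an interval that leaves room for either virus to be more than 2-fold ahead.

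**Figure D4:**
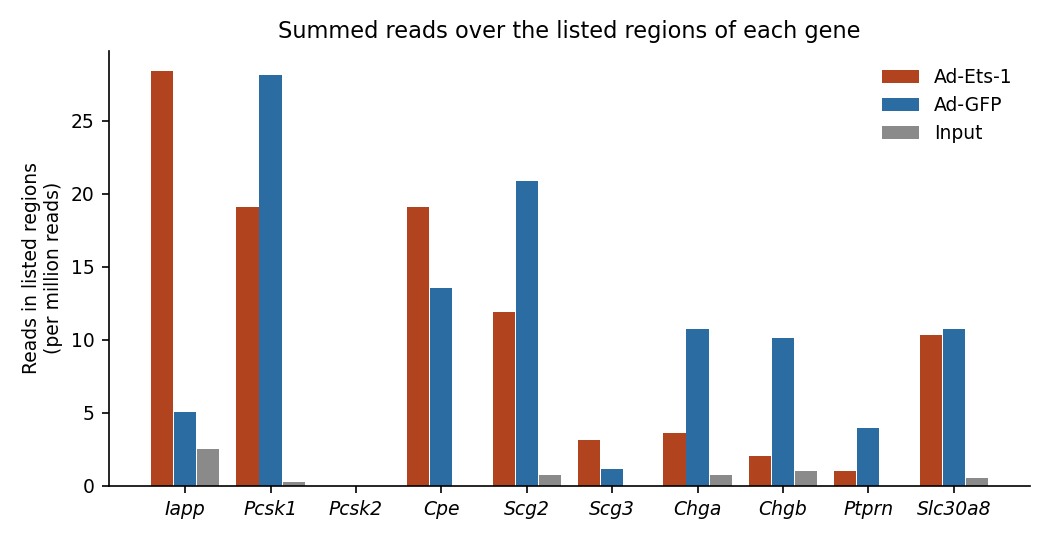
Bars give the reads in all listed regions of each gene in RPM of the library, for Ad-Ets-1, Ad-GFP and the input; there are no error bars because each group is 1 library. Iapp has the tallest Ad-Ets-1 bar, Pcsk1, Scg2, Chga, Chgb and Ptprn have taller Ad-GFP bars, those of Slc30a8 are nearly level, and Pcsk2 has no region by name.

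Over all 121 regions the viruses did not differ beyond counting error, with 191 and 185 reads and a ratio of 0.946 (0.714 to 1.25). Without Iapp, an alternative added after seeing the data, it was 0.708 (0.518 to 0.965), beside 0.781 for all compared regions. Scaled to the reads in listed regions in place of the library totals, the ratio over all 121 turned to 1.21. Sums of this kind follow how much was called: 50 regions covering 17.7 kb under Ad-Ets-1, at 5.21 RPM per kb, and 83 covering 23.6 kb under Ad-GFP, at 4.25. The corresponding levels over all called regions were 5.75 and 5.70. Per library against input, Scg2 stood at 15.6 times (4.20 to 86.0) under Ad-Ets-1 and 27.3 times (8.22 to 143) under Ad-GFP, and Slc30a8 at 20.3 (4.43 to 189) and 21.1 (4.49 to 198). Regions were listed for having precipitated reads, so ratios above 1 to the input follow from the listing. Iapp differed in that its Ad-GFP ratio, 2.00 (0.596 to 6.06), was low beside its Ad-Ets-1 ratio of 11.2 (5.27 to 25.8). This rests on the leading region and its 8 input reads: without it the ratios were 6.65 (0.953 to 73.5) and 16.25 (3.24 to 157).

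Promoter peaks were few. By the deposited classes, Scg2 and Ptprn had an Ad-GFP promoter peak, or 2 of 10 genes against 48.6% of the 19054 genes named in any file. Those classes stopped short of 3 kb: a Chgb region at -2980 bp was distal intergenic and one at 2500 bp intronic. Under Ad-Ets-1 these were Cpe and Scg3, again 2 of 10, against 37.7%. No gene of the 10 had one in both lists. The share of all named genes with one in both was not computed, and with 2 genes per list nothing is read from this. The 6 promoter regions held 9 reads with each virus, a ratio of 0.916 (0.211 to 3.98), and only that of Scg3 reached 5 reads, as did a promoter region of 8.39% of all named genes. At Cpe and Ptprn the label comes from short inner transcripts: both Cpe regions (1 and 2 reads under Ad-Ets-1, 0 under Ad-GFP) lay 95449 and 95914 bp into the gene, beside a processed transcript, and both Ptprn regions (1 and 2 Ad-GFP reads, 0 Ad-Ets-1 reads) lay 4541 and 5724 bp into it, beside a retained intron. Peaks were also counted within 3 kb of the outermost start alone, a wider window than the classes. Under Ad-GFP these stood at Scg2 and Chgb, where Chgb came in with the wider window and Ptprn dropped out. Under Ad-Ets-1 they stood at Scg3, where Cpe dropped out. The other 7 genes had no peak within 3 kb of that start in either list.

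Full 8-letter ETS words were found in few of the regions. The words searched were CCGGAAGT and CAGGAAGT on both strands, and the 6-letter CAGGAA is contained in the second. One of them stood in 6 of the 121 regions (4.96%) and in 1.89% of all 543014 compared regions on assembled chromosomes; for regions of up to 249 bases the count was 5 of 97 members and the share of all such regions 1.64%. All 6 matches were CAGGAAGT, all in regions called under Ad-GFP alone (6 of 71, beside 1.78% of all such regions), which held 1 or 2 Ad-GFP reads and no Ad-Ets-1 read. None was in the 50 regions called under Ad-Ets-1, where 2.05% of all such regions hold a word. Nor was one in the 9 with 5 or more reads, where the share of all such regions is 3.36%. At shares this low, finding none among so few regions is near the background. The 6 matches are shown with 11 bases to either side on the strand that reads CAGGAAGT, which is in capitals.
Cpe exon 4, chr8:64611342-64611371, plus strand: cttaaagggggCAGGAAGTggggactacct
Pcsk1 distal, first, chr13:74989518-74989547, plus strand: aatgctagggcCAGGAAGTgggagtgggtt
Pcsk1 distal, second, chr13:75076486-75076515, minus strand: aacaacaattaCAGGAAGTtatggatggcc
Scg2 distal, first, chr1:79418363-79418392, minus strand: aagctatatgcCAGGAAGTcaggaatgcta
Scg2 distal, second, chr1:79449504-79449533, minus strand: tcttgcaagctCAGGAAGTtcagagcccag
Scg2 distal, last, chr1:79463490-79463519, minus strand: ttgaagctcatCAGGAAGTgggaagagtcc
With the 6-letter words the share was 35 of 121 (28.9%) against 28.1%. In RefSeq promoter windows of 250 bases before to 50 after a start (GRCm38.p6), which were found for 8 of the 10 genes in 9 windows, none held an 8-letter word, against 7.07% of all 32851 windows, and 3 held a 6-letter word (Chga, Iapp and Pcsk2), against 44.7%. A match is a description of the letters, and a window without one says nothing of binding by Ets-1.

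Sequence composition and sharing between lists were not used in the choice. The median GC content of the 121 regions was 41.4%, against 40.3% for all compared regions, and a median of 18.5% of their bases was soft-masked as repeats, against 24.8%. Peaks shared between lists were 12 of 83 under Ad-GFP (14.5%, 95% exact binomial interval 7.70 to 23.9, against 9.86% of all peaks) and 12 of 50 under Ad-Ets-1 (24%, 13.1 to 38.2, against 14.1%), by an overlap of at least 1 bp. No member peak of the Ad-GFP list reached a −log10 q above 0.562 in the authors' deposited table.

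Other genes of the same pathway, a list of 32 granule, sorting and exocytosis genes, had more Ad-GFP than Ad-Ets-1 reads, as did the whole table. A region was named for 27 of them. Of the 32, 13 had a promoter peak under Ad-GFP and 9 under Ad-Ets-1, beside 48.6% and 37.7% of all named genes. All 9 were among the 13, but the share of all named genes with one in both lists was not computed. A promoter region of 5 or more reads was found for 2, Atp6ap2, an accessory protein of the vesicular proton pump, with 5 reads under Ad-Ets-1, 2 under Ad-GFP and 0 in the input, and Ccdc186, a granule maturation factor, with 0, 6 and 0. Ica1, an islet autoantigen of the granule pathway, held 4, 4 and 1 reads at its leading promoter region (ratio 0.916, 0.0664 to 12.6), and Hid1, which acts in granule formation, held 2, 4 and 0. Of the 14 regions of these genes with 5 or more reads, 1 was higher and 5 were lower under Ad-Ets-1, beside 12.3% and 36.4% of all regions with that many reads, so the share of lower regions was near the background. Their 370 regions held 361 and 552 reads, a ratio of 0.599 (0.5001 to 0.717), beside 0.781 over the whole table. That interval leaves out 0.781 but covers counting error only, and such sums follow how much each library had called.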

How the data were processed

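Ets-1 ChIP-seq of Min6 cells was analysed from a peak list for each of 2 precipitated libraries and a table comparing them with an input library. Per the labels' protocols, chromatin was crosslinked in 1% formaldehyde for 10 min. The submitters' processing notes name mm10, MACS2 2.1.0, BWA 0.7.12, Trimmomatic and FastQC, without settings. The authors deposited, per the file headers, a fold enrichment (ratio), −log10 p-value, −log10 q-value and score per peak. Their comparison table gives read counts per region, RPM, ratios to input and a log2 ratio, as deposited; the RPM values equal the count plus 1 over the library total, from which totals were recovered. Transcript coordinates matched GENCODE M21 for 98.9% of 66931 shared transcripts, and no region ran past a GRCm38 chromosome, so GRCm38 sequence was used. Peak starts were raised by 1.

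Groups come from sample titles. Ratios, floors and the 5-read minimum were as described beside the results. Intervals used fragments (2 reads, rounded up) in precipitated libraries and reads in the input. Intervals were tested on simulated independent fragments, in regions with more reads than most regions here. That simulation tests neither PCR copies nor the choice of regions by calling. The members and lists were chosen with earlier results of these data known. Named were the 10 members, their promoter regions and 2 most heavily read regions, and 4 listed pathway genes with the most heavily read promoter region; other regions and genes singled out were chosen after their values were seen. Alternatives were other promoter and gene assignments, thresholds, totals, overlap rules, counting units and words. Computation used scipy 1.17.1, pandas 2.3.3, numpy 2.4.6 and matplotlib 3.10.9 under Python 3.11.15.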

Additional observations from a re-analysis of the deposited data

How the results depend on the processing

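No paired analysis was possible because 1 library per group leaves no pairs. Genes with a promoter peak, 2 in each list, became 0 and 0 at a −log10 q of at least 1.3, 0 (control virus) and 1 (Ets-1 virus) at a fold enrichment of at least 3, and 5 with the control virus when any start site within 3 kb counted; with the Ets-1 virus 1 was left for promoters of up to 1 kb and 1 for the outermost start. The 121 regions fell to 9 with at least 5 reads. The ratio over all member regions, 0.946 (0.7141 to 1.252), became 1.33 (1.005 to 1.763) with totals from listed regions without the heaviest 0.1%. With totals from all listed regions it was 1.21 (0.9145 to 1.604), so its direction depends on the totals. It was 0.708 without Iapp and 2.37 in regions with at least 5 reads. Each of the latter regions reached 5 reads in only 1 library, the most heavily read, at Iapp and Cpe, under Ad-Ets-1, so 2.37 is shaped by that filter. With totals from listed regions 0 regions were lower, in place of 2. Shared peaks fell to 3.61% (control virus) and 6% (Ets-1 virus) by reciprocal overlap of 50%. Counting reads in place of fragments, 6 regions in place of 2 had an interval without 1. With 6-letter words 35 regions held a word in place of 6. Leaving out the most heavily read region of a gene kept 16 of 18 values per gene within their intervals; the exceptions were Iapp with the control virus against input, at 6.65, and Ptprn between the viruses, at 0. The total from listed regions for calls, the outermost start and the removal of Iapp were added after seeing the data. Depth limits single regions: with 1 to 3 fragments a library, a ratio near 1 and one several-fold away give overlapping intervals.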
